A study of Brassica rapa with 6 samples.

Results

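Mitochondrial pentatricopeptide repeat (PPR) proteins were described across petiole and leaf of baby Chinese cabbage (*Brassica rapa*). The set held every locus of the deposited expression table that stood for a single annotated gene or assembled transcript cluster and whose description named a pentatricopeptide repeat protein of mitochondria and did not mention the chloroplast, which gave 139 of 49200 loci. No expression value entered this rule, although the set was chosen with earlier results of these data known. Petioles and leaves were taken from plants of an inbred line at maturity, with no treatment in either tissue, and each tissue gave 3 libraries of RNA depleted of ribosomal RNA. Whether the 3 libraries of a tissue stem from different plants is not stated in the labels, so a p-value here measures only the spread among these libraries, and that spread may be technical. The tissues were bulk samples, in which fewer cells of a type and less RNA per cell cannot be told apart.

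PPR proteins are built from short helical repeats that bind single-stranded RNA in a sequence-specific way, and land plants carry a very large family of them. They are encoded in the nucleus, and most are imported into mitochondria or chloroplasts, where they edit, splice, cut, stabilise or help translate organelle transcripts. In mitochondria many of these transcripts code for subunits of the respiratory chain, and loss of a single PPR protein in Arabidopsis often slows growth or stops embryo development. A further group, related to restorer-of-fertility genes, acts on mitochondrial transcripts that cause male sterility in crops.

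The labelled tissues were set beside marker lists. These lists were chosen with earlier results of these data known, so they are no independent check. Over all loci, 31.5% were called towards petiole and 31.1% towards leaf. Of 24 light-harvesting antenna loci tested, which mark photosynthetic cells, 0 were called towards petiole and 23 towards leaf, with summed levels of 368 to 402 CPM (counts scaled to a common library size) in petiole and 4040 to 4450 CPM in leaf, and 2 of the 25 listed loci stood at 0 in petiole. Of 22 petiole and organ base loci tested, 19 were higher in petiole and 1 in leaf, with sums of 127 ± 2.89 CPM in petiole and 19.0 ± 0.839 CPM in leaf (SD, n = 3 each), where 6 of the 25 listed loci stood at 0. Of 38 dividing-cell loci tested, 26 were higher in petiole and 2 in leaf, with sums of 178 to 198 CPM in petiole and 92.8 to 105 CPM in leaf, and 3 of the 41 listed loci stood at 0 in petiole and 4 in leaf. Their part in the PPR results was not tested. Libraries held 120805715 to 132861243 count units in petiole and 111518411 to 121161682 in leaf, at an estimated 3.71 units per sequenced fragment. The most abundant locus took 3.32 to 3.49% of the units in petiole and 9.05 to 12.5% in leaf.

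Of the 139 loci, 125 had enough counts to be tested and 14 did not. Of those not tested, 13 stood at 0 in every library, with spans of 222 to 1881 bp and a median of 641 bp. The loci tested were mostly low. Their median level was 1.32 FPKM (a fragment level per length of transcript and per depth of the library), against 3.81 FPKM for all loci tested, and 53 of them were under 1 FPKM. The median locus rested on 333 count units, about 89.8 fragments, per library. The coefficient of variation between libraries had a median of 15.9% in petiole and 17.1% in leaf, wider than the 11.3% in petiole and 11.8% in leaf over all loci. Most members with an estimate looked unspliced or nearly so. Of 100 members in which the ratio of units to FPKM gave an estimate, 78 (78.0%) had an exonic length of at least 0.95 of their span, against 21.3% of all loci with an estimate, 73.1% of chloroplast PPR loci and 81.9% of PPR loci whose description names neither organelle. The median span of the 139 loci was 1851 bp. They lay on all 10 chromosomes, with 2 on A04 and 21 each on A07 and A09, and 19 lay within 20 kb of another member.

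Most mitochondrial PPR loci did not pass the test between the tissues. With edgeR's quasi-likelihood test, adjusted by Benjamini-Hochberg over all loci tested at a threshold of 0.05, 43 of 125 (34.4%) differed, against 62.6% of all loci. Petiole was the higher tissue for 15 (12%), against 31.5% of all loci, and leaf for 28 (22.4%), against 31.1% of all loci. Differences were also small: 107 of 125 loci (85.6%) lay within 2-fold, against 58.4% of all loci, and 14 (11.2%) were both past the threshold and at least 2-fold apart, 5 higher in petiole and 9 in leaf, against 34.5% of all loci. The median log2 fold change of petiole over leaf was 0.0 for the members and 0.01 for all loci, with quartiles of -0.44 and 0.36 for the members and -0.78 and 0.79 for all loci. CPM of the tissues did not overlap for 58 of 125 loci (46.4%), with petiole above leaf in 23 and below it in 35, against 71.3% of all loci.

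**Figure D1:**
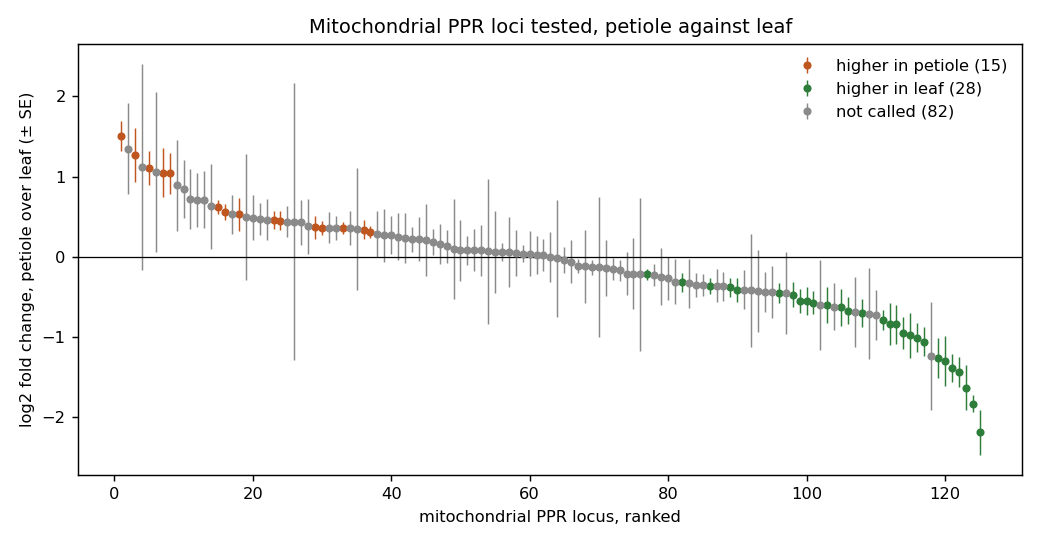
Log2 fold change of petiole over leaf for the 125 mitochondrial PPR loci tested, ranked from high to low, with bars of 1 standard error. The 15 loci called towards petiole and the 28 called towards leaf are coloured, among 82 that did not pass the test.

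The low share of calls was also seen among loci in the same ranges of CPM, with no matching of levels within a range. Between the quartiles of the members' CPM (1.43 and 5.64 CPM), 23 of 63 members (36.5%) were called, against 62.0% of the 6597 loci of the table in that range. The median standard error of the log2 fold change was 0.249 over these members and 0.242 over the loci of that range. Among the members at or above their median CPM, 35 of 63 (55.6%) were called, against 71.0% of all loci in their range. Below the median, 8 of 62 (12.9%) were called, against 43.8% of loci in their range.

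Of the 5 most abundant members by deposited FPKM 4 were higher in petiole, by less than 2-fold, against 31.5% of all loci. The 63 members at or above the median CPM did not lean this way, with 12 higher in petiole and 23 in leaf. PPR336 (MSTRG.2040, chromosome A01, 19798198 to 19799424, minus strand), which is associated with mitochondrial ribosomes in Arabidopsis, was the highest of the 125 at a mean of 22.5 FPKM. It had 35.6, 39.4 and 40.8 CPM in the 3 petiole libraries, against 27.7, 31.2 and 31.3 CPM in the 3 leaf libraries. Every petiole library lay above every leaf library, and the log2 fold change was 0.36 ± 0.0764 (SE; edgeR adjusted p 0.00195). PNM1 (MSTRG.9112, chromosome A03, 22218178 to 22219725, minus strand), found at mitochondrial polysomes and in the nucleus in Arabidopsis, had 28.2, 28.1 and 30.3 CPM in petiole, against 21.1, 17.8 and 17.5 CPM in leaf. Its tissues did not overlap either, and its log2 fold change was 0.62 ± 0.0887 (edgeR adjusted p 0.000131). MSTRG.218 (named for At4g35850; log2 fold change 0.31) and MSTRG.2978 (At3g02650; 0.36), also among the 5 most abundant, were higher in petiole, and MSTRG.218 overlaps another locus of the table. The other of the 5, MSTRG.30194 (At5g15980), had 27.0, 27.7 and 27.9 CPM in petiole, against 30.6, 31.9 and 33.3 CPM in leaf. It was higher in leaf by this scaling (log2 fold change -0.22, edgeR adjusted p 0.0139), and the sign turned on library totals (0.09) and on deposited FPKM (0.48). A further pair of loci named for proteins found with mitochondrial ribosomes in Arabidopsis, chosen after their values were seen, did not pass the test: MSTRG.13627 (At1g55890) at a log2 fold change of 0.49 ± 0.286 and MSTRG.8582 (At3g13160) at 0.13 ± 0.203.

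The larger differences towards petiole were in loci of low level. MSTRG.30336, named for At5g13230 (chromosome A10, 17159191 to 17161587, minus strand), had 7.54, 7.48 and 6.78 CPM in petiole, against 3.2, 2.4 and 2.06 CPM in leaf. Petiole lay above leaf in every library, with the largest log2 fold change towards petiole of the members tested, 1.51 ± 0.189 (edgeR adjusted p 4.77e-05). MSTRG.437, named for At4g32430, or GRS1, an editing factor of mitochondrial transcripts in Arabidopsis (a role added after its values were seen), had 2.51, 2.83 and 2.15 CPM in petiole, against 0.628, 1.46 and 1.02 CPM in leaf (log2 fold change 1.27 ± 0.334, edgeR adjusted p 0.00707). The leaf libraries varied more than 2-fold among themselves but stayed below every petiole library. MSTRG.14534 (At3g15590) had a log2 fold change of 1.11, MSTRG.8870 (At3g22670) of 1.05 and MSTRG.9503 (At4g21705) of 1.04, each past the threshold. MSTRG.8870 lost its call without petiole replicate 2 (edgeR adjusted p 0.0517). MSTRG.18883 (At2g17525) had 16.8, 15.2 and 15.5 CPM in petiole, against 10.9, 11.3 and 9.88 CPM in leaf, a smaller log2 fold change of 0.56 ± 0.0986 at a higher level.

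The largest difference at a higher level was in MSTRG.10250, on chromosome A03 from 32870550 to 32873078 on the minus strand. It had 13.1, 9.72 and 12 CPM in petiole, against 43.6, 40.3 and 39.8 CPM in leaf. Every leaf library stood at more than 3 times the highest petiole library, with a log2 fold change of -1.83 ± 0.108 (edgeR adjusted p 1.31e-07). The locus is described as mitochondrial but named for At5g42310, which in Arabidopsis is CRP1, a chloroplast protein needed for subunits of photosystem I and the cytochrome b6f complex. MSTRG.30431, named for At5g11310, had 2.36, 1.27 and 1.22 CPM in petiole, against 4.64, 4.54 and 5.92 CPM in leaf (log2 fold change -1.63 ± 0.28). That Arabidopsis protein, SOAR1, acts in abscisic acid signalling in the cytosol and nucleus. Both roles were added after the values were seen.

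MSTRG.6552 (At5g16420) had 3.3, 2.18 and 2.47 CPM in petiole, against 7.73, 6.73 and 7.04 CPM in leaf, with no overlap and a log2 fold change of -1.44 ± 0.187. MSTRG.9166 (At3g53360) had 3.24, 3.14 and 2.32 CPM in petiole, against 8.01, 7.75 and 6.99 CPM in leaf, with a log2 fold change of -1.39 ± 0.173. Both were also called higher in leaf on deposited FPKM. MSTRG.27592 (At3g62470), MSTRG.18687 (At2g20710), MSTRG.20302 (At1g80150) and MSTRG.11701 (At2g27800) had log2 fold changes of -1.26, -1.06, -1.01 and -0.98 and were called higher in leaf. On deposited FPKM these 4 stood at -0.32, -0.21, -0.19 and -0.2 on the log2(FPKM + 1) scale and did not pass (limma adjusted p 0.0864 to 0.226). The largest fall of all members, chosen for naming after its value was seen, was in MSTRG.24082 (At4g01030), a locus under 1 FPKM with 0.934, 0.549 and 0.785 CPM in petiole, against 3.99, 3.53 and 2.81 CPM in leaf (log2 fold change -2.19 ± 0.284).

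**Figure D2:**
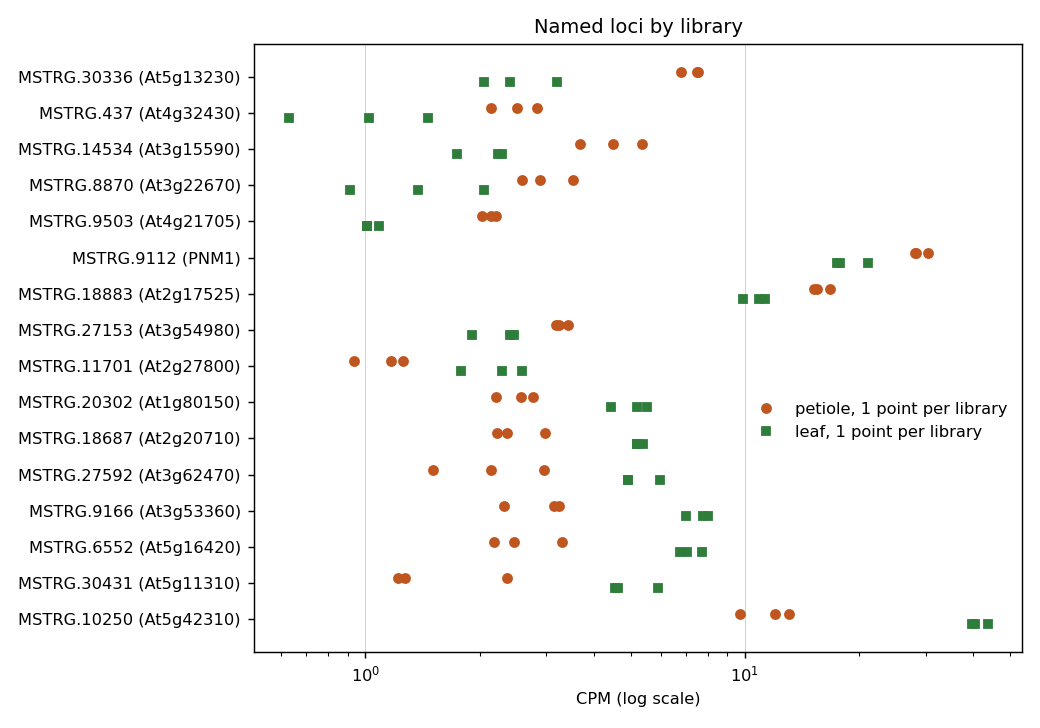
CPM on a log scale of the 8 named loci higher in petiole (upper rows) and the 8 higher in leaf (lower rows), with 1 point per library, petiole as circles and leaf as squares. The 16 rows were chosen to have no overlap between the tissues, and MSTRG.10250 shows the widest gap.

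Of the 9 members named for Arabidopsis proteins with a role listed by hand, 3 passed the test, against 34.4% of the members tested and 62.6% of all loci. These 3 were PPR336 and PNM1 towards petiole and ABO5 towards leaf. Among the RNA editing factors, which direct the change of single bases in mitochondrial transcripts, MEF12 (BraA03g034030.3C; log2 fold change 0.43), MEF9 (MSTRG.25341; 0.27), COD1 (MSTRG.13266; 0.08) and SLO1 (MSTRG.13753; -0.11) did not pass the test. SLO1 was the most abundant of the 4, with 13.6, 14.3 and 14.9 CPM in petiole, against 15.2, 15.6 and 15.4 CPM in leaf. Its log2 fold change was 0.20 on library totals and 0.53 on deposited FPKM, so its sign rests on the scaling. A further editing factor, REME1 (BraA06g038980.3C, At2g03880), chosen after its values were seen, stood at 0.71 ± 0.354 without passing.

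Of the splicing factors, ABO5 (MSTRG.13728), needed in Arabidopsis for splicing of a nad2 intron of respiratory complex I, had 7.09, 8.32 and 8.94 CPM in petiole, against 10.7, 11.7 and 10.7 CPM in leaf. It was higher in leaf without overlap (log2 fold change -0.45 ± 0.121, edgeR adjusted p 0.00847), while deposited FPKM gave 0.22 with a limma adjusted p of 0.0786. OTP43 (MSTRG.21282), which acts on a nad1 intron, stood at -0.41 ± 0.244 and did not pass. RPF2 (MSTRG.1542), which acts in 5-prime processing of nad9 and cox3 transcripts and overlaps another locus here, stood at -0.33 ± 0.306 and did not pass. 3 other members with a role known in Arabidopsis, named after their values were seen, were MTL1 (MSTRG.5909, At5g64320), which acts on nad7, PPR40 (MSTRG.2417, At3g16890), associated with respiratory complex III, and PPR596 (MSTRG.20306, At1g80270). MTL1 was called higher in leaf at -0.57 ± 0.142, lost the call on library totals (-0.26, edgeR adjusted p 0.128) and stood at 0.13 on deposited FPKM. PPR40 was called higher in leaf at -0.47 ± 0.161 and lost the call when petiole replicate 1, 2 or 3 or leaf replicate 1 was left out (edgeR adjusted p 0.053 to 0.128); it stood at -0.16 on library totals and 0.19 on deposited FPKM, without passing on either. PPR596 did not pass, with 9.18, 9.01 and 8.52 CPM in petiole, against 8.88, 8.17 and 8.59 CPM in leaf. Of the 11 tested members named for RF-like proteins, relatives of restorer-of-fertility genes, 0 passed towards petiole and 3 towards leaf, against 31.5% and 31.1% of all loci. On deposited FPKM it was 4 towards petiole and 0 towards leaf, against 58.7% and 16.1% of all loci.

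The members nearest the threshold show how thin its edge is. MSTRG.27153 (At3g54980; 0.53, edgeR adjusted p 0.0402), MSTRG.25315 (At1g62680; -0.32, 0.0423) and MSTRG.4864 (At1g80150; 0.37, 0.044) lay just inside it. MSTRG.20345 (At1g79490; -0.35, 0.0513), MSTRG.15549 (At1g52640; 1.35, 0.058) and MSTRG.13130 (At2g36980; 0.47, 0.0597) lay just outside. MSTRG.27153 lost its call in 5 of the 6 fits that left out 1 library (edgeR adjusted p 0.0569 to 0.108 in those), and MSTRG.4864 also in 5 of the 6 (0.0546 to 0.171). MSTRG.25315 lost it without petiole replicate 2 or 3 or leaf replicate 1 or 3 (0.067 to 0.173). MSTRG.20345 passed without petiole replicate 3 (0.00979) and MSTRG.13130 without leaf replicate 2 (0.0463). With the replicate number as a block, MSTRG.27153 (0.0676) and MSTRG.4864 (0.0651) did not pass. A single leaf library decided MSTRG.29582 (At5g57250, chosen after its values were seen), which had 19.7, 20.4 and 22.9 CPM in petiole, against 9.2, 9.33 and 19.9 CPM in leaf. Its log2 fold change was 0.71 (edgeR adjusted p 0.12), against 1.18 (1.1e-05) without leaf replicate 3 and 0.81 (0.0216) with the replicate block, and it overlaps another locus of the table.

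Several members share a description. The 139 loci named 115 distinct Arabidopsis proteins, and 16 of these were named for 2 or more loci, 38 members in all; reads from near-identical copies could be split between such loci, so their values are uncertain. At1g80150 was the one protein with a locus called in each direction. MSTRG.20302 had 2.58, 2.76 and 2.21 CPM in petiole, against 4.44, 5.21 and 5.51 CPM in leaf, and MSTRG.4864 had 6.9, 6.57 and 8.51 CPM in petiole, against 5.6, 5.58 and 5.82 CPM in leaf. A further 2 pairs, at At3g53360 and At2g20710, were chosen after their values were seen. The ratio of MSTRG.20302 to MSTRG.4864 within a library, which needs no scaling between libraries, was 0.375, 0.42 and 0.259 in petiole, against 0.793, 0.933 and 0.947 in leaf. MSTRG.9166 over MSTRG.27041, both named for At3g53360, was 1.5, 1.57 and 0.984 in petiole, against 7.63, 3.58 and 3.03 in leaf. In both pairs no petiole ratio reached a leaf ratio, which their choice by calls or values favoured. The locus with the lower log2 fold change was put on top, which favoured a lower ratio in petiole. Pairs not chosen could stand apart too, such as MSTRG.23672 over MSTRG.28181 (At3g22470). That ratio was 0.743, 0.364 and 0.903 in petiole, against 1.01, 0.917 and 1.93 in leaf. MSTRG.18687 over MSTRG.25088, both named for At2g20710, was 1.34, 0.725 and 0.799 in petiole, against 1.1, 1.1 and 0.913 in leaf, and the tissues overlapped. Both of these were called higher in leaf, MSTRG.25088 at -0.84 ± 0.258, although not without leaf replicate 3 (edgeR adjusted p 0.054). Over 13 such pairs the smallest two-sided exact permutation p was 0.1, the smallest that 3 against 3 allows, and 0.217 after Benjamini-Hochberg adjustment over the 13, so no pair passed the threshold.

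**Figure D3:**
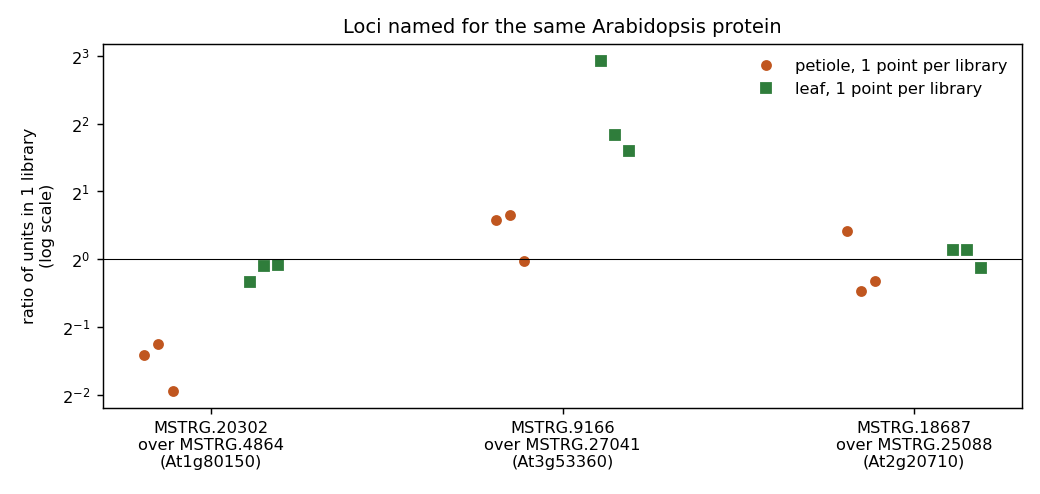
Ratio of count units between 2 loci named for the same Arabidopsis protein, on a log scale with base 2, with 1 point per library, petiole as circles left of leaf as squares. The tissues lie apart for MSTRG.20302 over MSTRG.4864 and for MSTRG.9166 over MSTRG.27041, and overlap for MSTRG.18687 over MSTRG.25088.

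Mitochondrial and chloroplast PPR loci stood differently in the 2 tissues. Summed over the list after TMM scaling, mitochondrial PPR loci had 625, 624 and 628 CPM in petiole, against 665, 669 and 675 CPM in leaf. Chloroplast PPR loci had 342, 347 and 364 CPM in petiole, against 971, 939 and 960 CPM in leaf. The mitochondrial sum was thus 1.83, 1.8 and 1.73 times the chloroplast sum in the petiole libraries and 0.684, 0.713 and 0.704 times it in the leaf libraries, a comparison within each library. Of 56 chloroplast PPR loci tested, 2 were higher in petiole and 42 in leaf, with a median log2 fold change of -1.14. On deposited FPKM these 56 had 10 and 27, with a median of -0.25. Among 251 other PPR loci, whose description names neither organelle, 13 were higher in petiole and 65 in leaf with a median of -0.26. That median turned to 0.05 (36 and 32) on library totals and to 0.21 (96 and 19) on deposited FPKM. With TMM, 31.1% of the other PPR loci were called in either direction and 78.6% of the chloroplast PPR loci, against 62.6% of all loci. The antenna markers given above moved with the chloroplast list, and their part was not tested.

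Against the respiratory chain and the mitochondrial ribosomal proteins the relation ran the other way. The mitochondrial PPR sum was 0.267, 0.255 and 0.259 of the respiratory chain sum in petiole, against 0.365, 0.368 and 0.359 in leaf. Of 103 respiratory chain loci tested, 61 were higher in petiole and 4 in leaf, with a median log2 fold change of 0.4. Of 27 mitochondrial ribosomal proteins, 7 were higher in petiole and 3 in leaf, with a median of 0.24. The share called in either direction was 37.0% for these 27 and 63.1% for the respiratory chain, against 62.6% of all loci. By direction, 31.5% of all loci were called towards petiole and 31.1% towards leaf. The PPR sum was 2.95, 2.78 and 2.77 times the ribosomal protein sum in petiole, against 3.53, 3.46 and 3.39 times in leaf. By its sum the import list did not share this, with 353, 359 and 354 CPM in petiole, against 379, 389 and 399 CPM in leaf. The whole tRNA ligase list summed to 589, 597 and 603 CPM in petiole, against 960, 932 and 896 CPM in leaf. Of its 35 loci, however, 26 are also described as chloroplast. The ligases without that word summed to 302, 301 and 309 CPM in petiole, against 290, 274 and 276 CPM in leaf. The dividing-cell markers given above were also higher in petiole, and their part in these ratios was not tested.

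**Figure D4:**
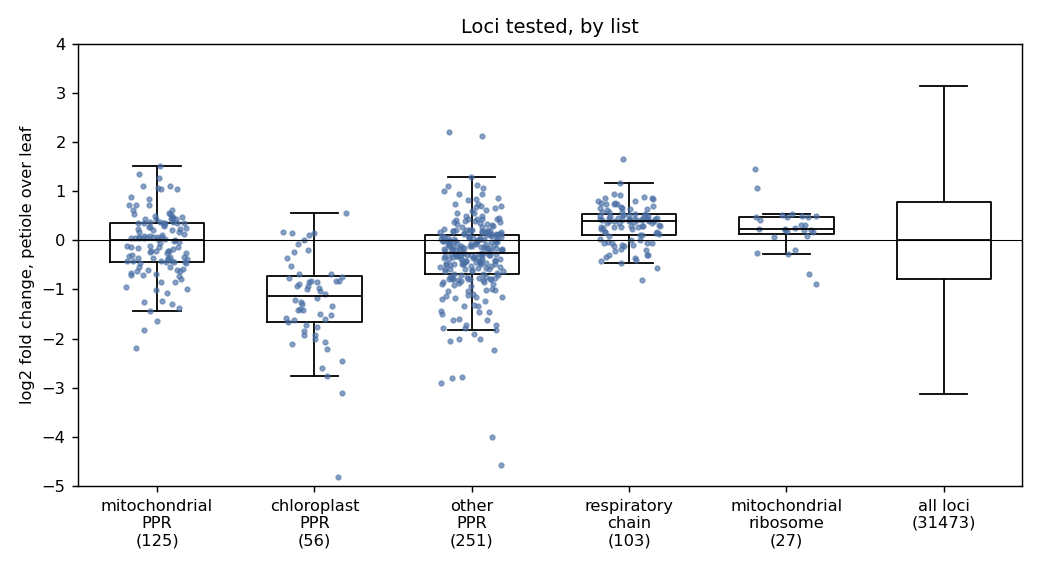
Log2 fold change of petiole over leaf for each locus tested in 5 lists and, as a box without points, for all loci. Boxes span the quartiles with the median as a line, and whiskers reach the last value within 1.5 times the box. The mitochondrial PPR median lies at 0.0, that of chloroplast PPR loci at -1.14 and that of the respiratory chain at 0.4.

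Partners of PPR proteins in organelle RNA metabolism were counted in the same fit. It called 31.5% of all loci higher in petiole and 31.1% in leaf, against 58.7% and 16.1% on deposited FPKM. Of 15 organellar RNA editing partners, the small proteins that work with PPR editing factors, 0 were higher in petiole and 5 in leaf. The 6 described as chloroplast had 0 and 3 (median log2 fold change -0.82), and the other 9 tested had 0 and 2 (-0.16). The median of all 15 was -0.18, which turned to 0.12 (4 and 4) on library totals and to 0.32 (8 and 3) on deposited FPKM. Of 11 MTERF loci, which act in organelle transcription and splicing, 1 was higher in petiole and 8 in leaf (median -0.97), and 8 of the 11 are described as chloroplast. On deposited FPKM the MTERF loci had 3 and 5 (median -0.09). Splicing and helicase factors counted 0 higher in petiole and 3 in leaf of 5. The 3 of them described as chloroplast had 0 and 2, and the other 2 had 0 and 1. RNA polymerases counted 0 and 1 of 3, and processing nucleases 1 and 2 of 5. On deposited FPKM the splicing and helicase factors had 1 and 2, the polymerases 2 and 0 and the nucleases 1 and 1. Of 31 tRNA ligases, 4 were higher in petiole and 23 in leaf (9 and 14 on deposited FPKM). The ligases whose description also names the chloroplast held most of the leaf calls, with 1 higher in petiole and 22 in leaf of 25, while the other 6 had 3 higher in petiole and 1 in leaf.

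The direction of small differences depended on how libraries were scaled. Scaling by trimmed means (TMM) put the median of all loci at 0.01, library totals alone put it at 0.32, and deposited FPKM put it at 0.47 on the log2(FPKM + 1) scale. The mitochondrial PPR loci moved with it: their median was 0.31 on library totals, with 32 of 125 called towards petiole and 11 towards leaf, against 41.9% and 22.4% of all loci. On deposited FPKM it was 0.30, with 60 of 125 called towards petiole and 5 towards leaf, against 58.7% and 16.1% of all loci. Calls towards petiole made up 34.9% of the member calls and 50.3% of all calls with TMM. On deposited FPKM they made up 92.3% of the member calls and 78.4% of all calls. The lean of the members relative to all loci thus turned among the calls, but not by the medians. The median of the members minus that of all loci was -0.01 with TMM and -0.0 on library totals. It was -0.17 on log2(FPKM + 1) and -0.12 on log2(FPKM + 0.1), so its size on FPKM depended on the constant added. A direction given here holds only against the median locus. All 15 loci called higher in petiole kept that call under each of the 6 scalings compared, and 5 of the 28 called higher in leaf did (MSTRG.10250, MSTRG.30431, MSTRG.6552, MSTRG.9166 and MSTRG.24082). None of the alternatives put the median of all loci further towards leaf than TMM did (0.02 to 0.7, against 0.01). Calls towards petiole were thus favoured to persist and calls towards leaf to be lost, so these 2 counts cannot be compared. On deposited FPKM 4 of the 28 were called higher in petiole, among them MSTRG.30194 and MSTRG.25315.

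**Figure D5:**
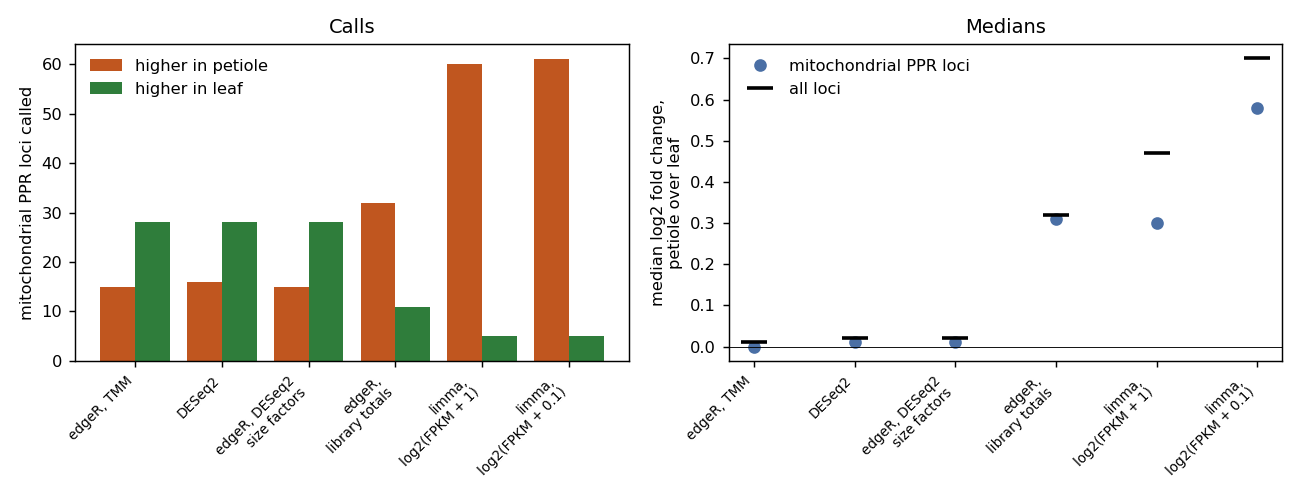
Left, number of mitochondrial PPR loci called higher in petiole and in leaf under 6 combinations of tool and scaling. Right, the median log2 fold change of petiole over leaf of these loci (points) and of all loci (dashes) under the same 6, from 0.0 for the loci with TMM to 0.58 with limma on log2(FPKM + 0.1).

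The functional annotation of these loci held an oddity. The orthology term K01176, which stands for alpha-amylase, an enzyme of starch breakdown, was attached to 187 loci, of which 146 are described as PPR proteins and 2 as amylases, and 28 of the 139 members carried it. All 187 were placed in the starch and sucrose pathway. Of the 27 tested members with this term, 2 were higher in petiole and 3 in leaf, against 31.5% and 31.1% of all loci, and on deposited FPKM 12 and 1, against 58.7% and 16.1%.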

How the data were processed

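For each locus the deposited table gave FPKM and an estimated count in every library, per the file headers. Although the authors' estimated counts were whole, the best step among their low values was 3.69 to 3.73 units. The periodicity was weak, with a peak height of 0.119 to 0.135, where a perfect step gives 1. A unit was therefore taken, as an estimate, to be less than a fragment. The authors' FPKM values, a fragment level per length and depth, stood at 0.0001 where the count was 0. Bowtie 0.12.2 and mm8 stand in the submitters' processing notes, with no role. Aligner, counter and plant build: not given in the sources used here. Coordinates are as deposited.

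Estimated counts, already whole so that rounding changed nothing, were tested with edgeR 4.0.16 (R 4.3.3): filterByExpr, TMM factors (0.885 to 1.137), robust quasi-likelihood, tissue alone, two-sided, adjusted over the 31473 loci tested. The standard error is the log2 fold change over the square root of F. CPM are TMM-scaled. The script was tested on simulated counts. Alternatives used DESeq2 1.42.0, limma 3.58.1 on log2(FPKM + 1) or log2(FPKM + 0.1), other filters and scalings, counts divided by 3.71, each library left out, and a replicate block.

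Members and lists were chosen with earlier results of these data known. Loci named were up to 8 called members in each direction with the largest change, at least 1 FPKM in the higher tissue and no overlap; the 5 most abundant; those named for Arabidopsis proteins with roles listed by hand; sets named for 1 protein with calls in both directions; and 3 on either side of the threshold. Other loci were chosen after their values were seen and are marked.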

Additional observations from a re-analysis of the deposited data

How the results depend on the processing

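The 125 members tested gave 15 calls towards petiole and 28 towards leaf and a median log2 fold change of 0.0, and the largest changes came with the scaling. Library totals without TMM factors gave 32, 11 and 0.31, limma on log2(FPKM + 1) gave 60, 5 and 0.30 with or without the filter on low values, and limma on log2(FPKM + 0.1) gave 61, 5 and 0.58; these follow the medians of all loci (0.32, 0.47 and 0.7; 0.36 without the filter). DESeq2, its size factors in edgeR, no filter on low counts, a mean of at least 1 CPM and counts divided by 3.71 gave 14 to 17 calls in petiole and 28 to 30 in leaf. Leaving out 1 library gave 13 to 16 in petiole, 22 to 27 in leaf, a median of -0.12 to 0.04, and 18442 to 18859 calls over all loci, against 19711. The median was -0.12 without petiole replicate 3 and -0.06 without leaf replicate 1. Deviations from the tissue mean had correlations of 0.03, -0.004 and -0.005 between libraries of the same replicate number. Number 1 was best matched by its own number, and numbers 2 and 3 were not. Such values cannot settle whether the replicate numbers pair the samples. The fit with the replicate number as a block gave 15 in petiole, 26 in leaf and 18683 over all loci. Signs turned without TMM factors for MSTRG.13753 (0.20) and MSTRG.30194 (0.09). On log2(FPKM + 1), and in brackets log2(FPKM + 0.1), they turned for MSTRG.13753 at 0.53 (0.62), MSTRG.30194 at 0.48 (0.52), MSTRG.25315 at 0.35 (0.41), MSTRG.1542 at 0.19 (0.40), MSTRG.20345 at 0.27 (0.36), MSTRG.21282 at 0.21 (0.33), MSTRG.13728 at 0.22 (0.28), MSTRG.2417 at 0.19 (0.27) and MSTRG.5909 at 0.13 (0.17). Leaving out 1 library turned MSTRG.13266 (-0.17 to 0.30; -0.17 without petiole replicate 3, -0.08 without leaf replicate 1) and MSTRG.27041 (-0.04 to 0.44; -0.04 without leaf replicate 1), neither past the threshold. Which scaling is right was not tested. Loci under 1 FPKM rest on few fragments, which limits what could be detected for them.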

Other observations

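Of 43 mitochondrial import loci tested, 7 were higher in petiole and 6 in leaf, with a median log2 fold change of 0.11. The calls were 18 and 5 on library totals and 31 and 3 on deposited FPKM. Over all loci the shares called towards petiole and leaf were 31.5% and 31.1% with TMM. They were 41.9% and 22.4% on library totals and 58.7% and 16.1% on deposited FPKM. Of 7 prohibitins, ring-forming proteins of the inner membrane, 3 were higher in petiole and 1 in leaf, and their summed level was 158, 158 and 159 CPM in petiole, against 157, 156 and 160 CPM in leaf. On deposited FPKM 7 prohibitins were called towards petiole and 0 towards leaf. Of 5 loci described as alternative or ubiquinol oxidases, enzymes that oxidise quinols, 1 was higher in petiole and 3 in leaf, with sums of 19.8, 16.5 and 14.9 CPM in petiole, against 42.6, 41.6 and 44.4 CPM in leaf. 1 of the 3 leaf calls was MSTRG.972, described as a chloroplast protein, with 5.36, 4.58 and 4.44 CPM in petiole, against 18.8, 18.2 and 19.6 CPM in leaf.

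Among the mitochondrial PPR loci, the 20 with zinc ion binding in their gene ontology terms, all tested, had 1 called higher in petiole and 1 in leaf, against 31.5% and 31.1% of all loci; in the CPM range of the lower-level members 43.8% of loci were called in either direction, and the median of these 20 was 1.15 CPM. Of 12 tested members within 20 kb of another member, 0 were higher in petiole and 2 in leaf, against the same 31.5% and 31.1%.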
